A study of Mus musculus with 12 samples.

Results

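The reproductive homeobox (Rhox) genes of the mouse form a single cluster on the X chromosome. Of the 53715 genes of the deposited count table, 41 were examined as this family: every gene whose symbol starts with Rhox followed by a digit, with Rhox5 left out. This rule used names only, but the family was chosen with earlier results of these data known. The 41 comprised 33 protein-coding genes and 8 pseudogenes, spread over 1092 kb of mm10 (chrX:37213804-38306028). Over all libraries the members ranged from Rhox11-ps1, with no count, to Rhox13, with 37127.

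The RNA came from mouse testis cells labelled as spermatogonia, the germ cells that renew themselves and feed sperm production, of a C57BL6/129 background. For each library 1000 cells were sorted by fluorescence, and cDNA was made with Smart-seq2, which copies whole transcripts from little RNA. There were 4 groups of 3 libraries: WT and Tet1KO, each at 3 and at 11 months of age, with no other allele or agent named. The labels give neither the deleted part of Tet1, nor the cells in which it was deleted, nor whether the 3 libraries of a group are 3 animals. The p-values therefore reflect the spread among these libraries alone, and that spread may be technical.

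Rhox genes encode homeodomain transcription factors that act mainly in the testis, the epididymis, the ovary and the placenta, and many of them are silenced by promoter methylation in cells of other lineages. TET1 oxidises 5-methylcytosine, the mark behind that silencing, and the series compares expression with and without it at a younger and an older age. In the testis the family is divided between germ cells and their somatic neighbours. Rhox10 and Rhox13 are known from germ cells, Rhox5 and Rhox8 from Sertoli cells, the somatic nurse cells of the tubule. Rhox2, Rhox3 and Rhox4 are arrays of near-identical copies made by repeated duplication of a block of genes in the mouse.

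Total counts per library ran from 8325159 to 18223645, so that 3 counts corresponded to 0.162 to 0.403 CPM (counts relative to the TMM-scaled library total), a limit that covers counting error only. WT replicate 1 and Tet1KO replicate 2 of 3 months stood apart from the other 10 libraries on the first principal component (44% of the variance) and held counts for 29420 and 30010 genes, where no other library exceeded 26995. The labelled cell type was present in every library: Dazl, a germ cell RNA-binding protein gene, lay between 1651 and 2503 CPM and Kit, the receptor of differentiating spermatogonia, between 62.1 and 109.8 CPM. Of the marker lists, 15 of 15 genes of undifferentiated and 10 of 10 of differentiating spermatogonia passed the filter on low counts, and so did 15 of 17 Sertoli, 10 of 10 spermatid, 7 of 7 peritubular myoid, 9 of 9 macrophage and 1 of 6 Leydig genes, and none of these passed the test in any comparison. Tet1 itself was near the limit of detection and did not separate the labels, at 0 to 1.64 CPM in the 6 WT and 0.0616 to 1.73 CPM in the 6 Tet1KO libraries. Fewer cells of a type and less RNA per cell cannot be told apart in such bulk libraries.

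The promoters of 4 members are shown because the CG dinucleotide is the site of the methylation on which TET1 acts, and because these 4 stand for the range of levels described next: Rhox13 and Rhox10, the most abundant single-copy genes, Rhox2a, the leading Rhox2 copy, and Rhox4e, the leading copy of the barely detected Rhox4 array. Each is the 250 bases before the RefSeq start site, 5′ to 3′ on the plus strand of GRCm38.p6, with CG in capitals: Rhox13 at chrX:38120590-38120839, Rhox10 at chrX:38066225-38066474, Rhox2a at chrX:37244742-37244991 and Rhox4e at chrX:37557162-37557411. The RefSeq start of Rhox13 lies 379 bases upstream of the first base of the gene in the deposited table.
Rhox13: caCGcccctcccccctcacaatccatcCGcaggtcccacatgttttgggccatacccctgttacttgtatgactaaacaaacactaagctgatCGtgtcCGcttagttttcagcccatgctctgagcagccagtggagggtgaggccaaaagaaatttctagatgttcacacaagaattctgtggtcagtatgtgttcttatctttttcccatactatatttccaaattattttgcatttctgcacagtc
Rhox10: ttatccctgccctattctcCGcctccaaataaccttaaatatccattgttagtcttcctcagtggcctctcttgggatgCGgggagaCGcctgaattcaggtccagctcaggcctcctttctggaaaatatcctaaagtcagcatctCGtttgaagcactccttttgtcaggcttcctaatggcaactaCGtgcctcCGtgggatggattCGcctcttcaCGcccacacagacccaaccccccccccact
Rhox2a: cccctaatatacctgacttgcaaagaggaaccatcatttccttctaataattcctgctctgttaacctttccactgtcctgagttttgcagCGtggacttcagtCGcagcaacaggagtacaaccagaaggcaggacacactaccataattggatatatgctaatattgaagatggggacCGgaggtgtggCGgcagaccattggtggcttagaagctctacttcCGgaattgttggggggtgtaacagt
Rhox4e: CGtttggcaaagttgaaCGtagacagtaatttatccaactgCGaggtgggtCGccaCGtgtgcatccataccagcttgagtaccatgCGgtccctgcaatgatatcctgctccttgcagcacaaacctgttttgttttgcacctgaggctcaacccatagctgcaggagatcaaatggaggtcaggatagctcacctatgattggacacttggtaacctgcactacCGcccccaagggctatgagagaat

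These stretches hold 4, 8, 5 and 7 CG dinucleotides. Over the full RefSeq window, which adds the first 50 transcribed bases, 27 members had an entry and held 0 to 12 CG, with a median of 7, which was also the median of all 32851 promoters of that length (quartiles 3 and 20). Rhox1 had 0 and Rhox11-ps2 and Rhox4a had 12. A CG stood in 94.6% of all promoters. TATAAA, searched on both strands, stood in 13.6% of all promoters and in 1 of the 27, that of Rhox12. AGGTCA, searched on both strands, stood in 16.3% of all promoters and in 14 of the 27, among them all 7 Rhox4 copies with an entry. The other 7 were 5 Rhox3 copies (Rhox3a2, Rhox3c, Rhox3e, Rhox3f and Rhox3g), Rhox1 and Rhox12. Relative to the RefSeq start, these 5 Rhox3 genes begin at -355, -11283, -4956, -360 and -473 bases in the deposited table. Their windows thus lie inside the gene as counted. For Rhox3a and Rhox3h both starts coincide, and no AGGTCA was found. In all, 12 of the 14 are array copies and do not count as independent matches: identity over the window was 65.7% to 95% among the 7 Rhox4 promoters and 37.7% to 99.3% (median 92.8%) among the 5 of Rhox3. The Rhox2 promoters were 74.6% to 99.7% identical (median 87.5%), with Rhox2a and Rhox2e at 99.7%, whereas the Rhox13 and Rhox10 promoters shared 48.0%. Over the full window Rhox13, the most abundant member, had 5 CG, Rhox2a 8, Rhox10 9 and the barely detected Rhox4e 10.

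Expression of the family was dominated by 1 gene. Rhox13 supplied 53.2% to 70.5% of all counts given to the 41 members (median 58.3%), in every library. Per kb of exon its mean over the 12 libraries was 286.9 CPM, against 28.1 for Rhox2a and 26.7 for Rhox10, the next coding genes in order. Rhox2d (15.9), Rhox7b (15.1), Rhox2f (11.2), Rhox2b (10.7), Rhox2c (7.79), Rhox1 (7.27), Rhox2e (6.73), Rhox2g (6.47), Rhox2h (5.01) and Rhox7a (4.36) followed, all in CPM per kb. Rhox3h, Rhox8, Rhox3f and Rhox11 lay between 1.42 and 1.52 CPM per kb, and the other 16 coding genes below 1. The lowest Rhox13 library, at 189.2 CPM per kb, was above the highest of any other coding member, 56.8 for Rhox10. Of the adjacent pairs below it in this order, only Rhox7a and Rhox3h had ranges that did not overlap, with 3.08 as the lowest and 2.94 CPM per kb as the highest value, and the neighbours in all other pairs did not differ beyond their range over libraries.

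**Figure D1:**
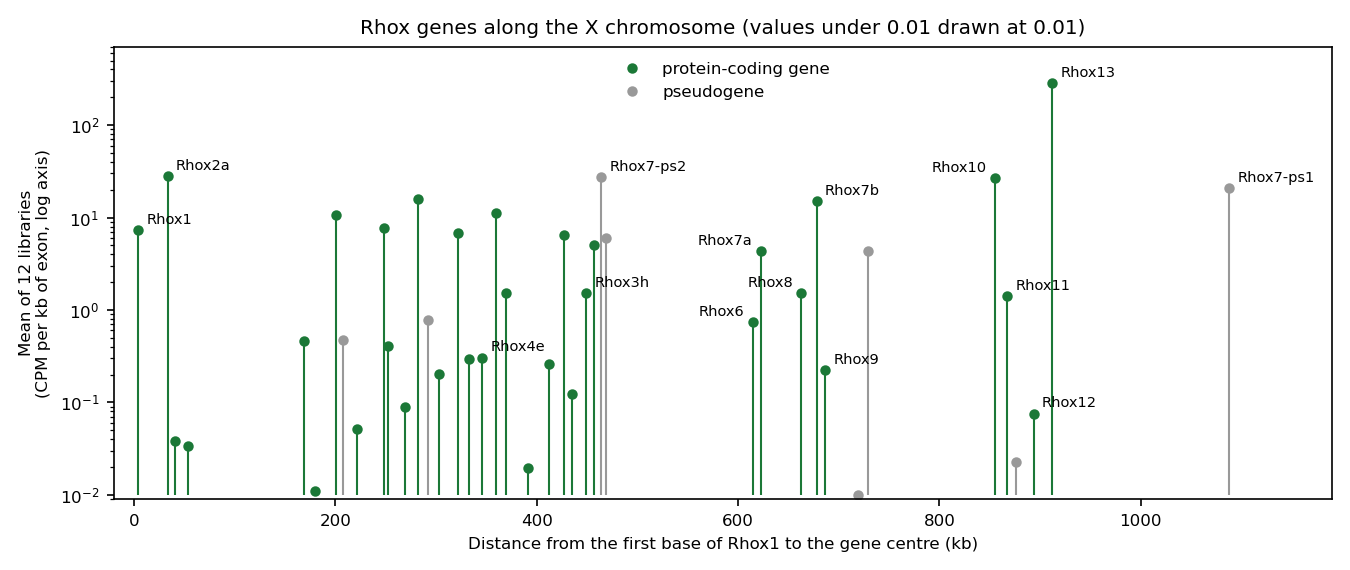
Mean level of the 41 Rhox genes over the 12 libraries (vertical log axis, CPM per kb of exon) against the distance of each gene's centre from the first base of the cluster (horizontal axis, kb). Green marks coding genes and grey pseudogenes; Rhox13, at 286.9, stands above Rhox2a, at 28.1, and Rhox10, at 26.7, and the copies of the left part alternate between high Rhox2 and low Rhox3 and Rhox4 levels.

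After the filter on low counts 24 members could be tested, 19 coding genes and 5 pseudogenes. Another 14 had counts in at least 3 libraries but stayed below the filter: all Rhox4 copies but 1 (Rhox4a, Rhox4b, Rhox4c, Rhox4d, Rhox4e, Rhox4f and Rhox4g), Rhox3a, Rhox3a2, Rhox3c, Rhox3e and Rhox3g, the pseudogene Rhox3b-ps, and Rhox12. Rhox4a2 and Rhox11-ps3 had 2 counts and 1 count in all, and Rhox11-ps1 had none in 12 libraries. Counts in all 12 libraries were found for 27 members. The filter asked for 0.851 CPM on library totals in at least 3 libraries, and 2 members, Rhox9 and Rhox3d-ps, reached it in 3 Tet1KO libraries each and in none of the 6 WT libraries. Rhox6 reached it in 3 Tet1KO libraries and 1 WT library. For all other tested members at least 3 libraries of each genotype did so.

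Rhox13 encodes a homeodomain protein of spermatogonia and early meiotic cells whose translation is restrained by NANOS2 in male fetal germ cells. Its level was 203, 220 and 358 CPM in WT and 231, 197 and 274 CPM in Tet1KO replicates 1 to 3 at 3 months. At 11 months it was 302, 218 and 260 CPM in WT and 308, 166 and 277 CPM in Tet1KO. The 4 groups overlapped fully, and the lowest library (Tet1KO replicate 2 of 11 months) and the highest (WT replicate 3 of 3 months) differed 2.16-fold. By CPM per kb it ranked between 220 and 373 among all genes of a library. Nanos2 itself was low, at 0 to 1.87 CPM.

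Rhox10 encodes a factor that drives fetal germ cells towards the spermatogonial stem cell state, in part through Dmrt1. Its level was 43.3, 23.8 and 10.6 CPM in WT and 24.5, 24.3 and 11.6 CPM in Tet1KO replicates 1 to 3 at 3 months. At 11 months it was 8.39, 15.8 and 27.2 CPM in WT and 9.05, 17.4 and 28.2 CPM in Tet1KO. The highest and lowest library differed 5.16-fold, and all 4 groups overlapped. At 11 months the WT and Tet1KO libraries of the same number had nearly the same level, and at 3 months replicate 3 was the lowest of both groups. Other transcripts differed between the same libraries. In the 11-month replicates 1 to 3, the summed spermatid markers stood at 2644, 449.6 and 295 CPM in WT and 2427, 1102 and 408.6 CPM in Tet1KO, and Gfra1, the GDNF receptor of undifferentiated spermatogonia, at 14.6, 26.8 and 25.5 CPM and at 18.6, 40.6 and 37.2 CPM. Replicate 1 thus had the least Rhox10 and Gfra1 and the most spermatid RNA of its group at this age. At 3 months the order was another one: the spermatid sums of replicates 1 to 3 were 2886, 865.4 and 487.8 CPM in WT and 662.7, 1385 and 819.5 CPM in Tet1KO, so that the WT library with the most spermatid RNA also had the most Rhox10. The part of other cells in the Rhox10 level was not tested.

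**Figure D2:**
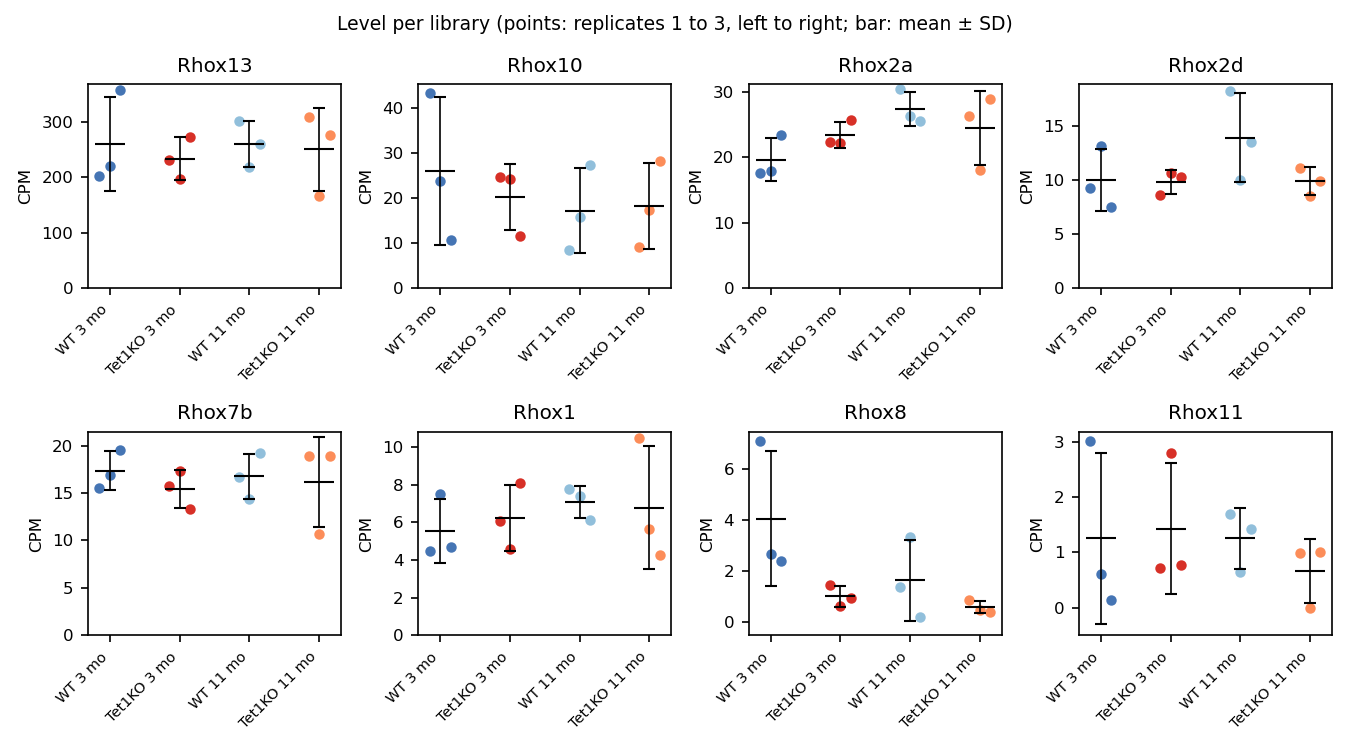
Level of 8 Rhox genes in each library (vertical axes, CPM, each panel with its own scale) in the 4 groups (horizontal axis), with points for replicates 1 to 3 from left to right and black bars for the mean ± SD of 3 libraries. Rhox13 and Rhox7b overlap in all groups, Rhox10 spreads from 8.39 to 43.3 CPM, and the 3 Rhox8 points of WT at 3 months lie above those of Tet1KO at that age.

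The Rhox2 array was the second source of family RNA, with 18.75% of the members' counts on average. All 8 coding copies passed the filter, with 588 to 3600 counts each and 11393 in all, and the pseudogene Rhox2-ps had 305. Rhox2a had the highest level per kb of the array in each of the 12 libraries, and took 24.8% to 34.0% of the array's counts (median 31.6%). The 7 coding Rhox3 copies together had 701 counts, of which Rhox3h (249) and Rhox3f (223) held most. The 8 Rhox4 copies together had 297, with 103 for Rhox4e. The Rhox4 copies, which include the gene first described as Ehox in embryonic stem cells, summed to 1.07 to 2.52 CPM. Genes that lie next to each other in a block of the array thus differed in level: Rhox2e had a mean of 6.73 CPM per kb over the 12 libraries, Rhox3e of 0.296 and Rhox4e of 0.304.

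How far these copies can be told apart was measured on their transcripts. In GENCODE M21, every 50-base window of Rhox13, Rhox10, Rhox1, Rhox11 and Rhox12 occurs in no other gene. Only 0% to 55.3% of the windows of the Rhox2 coding copies did so (median 34.0%), 0% to 39.5% for Rhox3 and 1.76% to 33.2% for Rhox4. Rhox2e and Rhox3a2 had no window of their own, yet were given 867 and 71 counts. The split of counts among copies, Rhox2a with 8.90% own windows included, is therefore uncertain, and the sum over an array does not depend on it. How many reads that fit several copies passed the mapping quality minimum of 30 is not known. Array sums and levels per kb may therefore be too low beside genes with only own windows, such as Rhox13, and this was not tested. All counts of the coding copies divided by the number of their own windows came to 5.71 for Rhox2, 0.474 for Rhox3 and 0.105 for Rhox4. The values were 44.9 for Rhox13 and 4.20 for Rhox10. For the arrays these ratios also hold counts on shared sequence, so they are no check of the order of levels. Rhox2c and Rhox3c also share 152 exon bases on the same strand, so fragments there were counted for both.

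**Figure D3:**
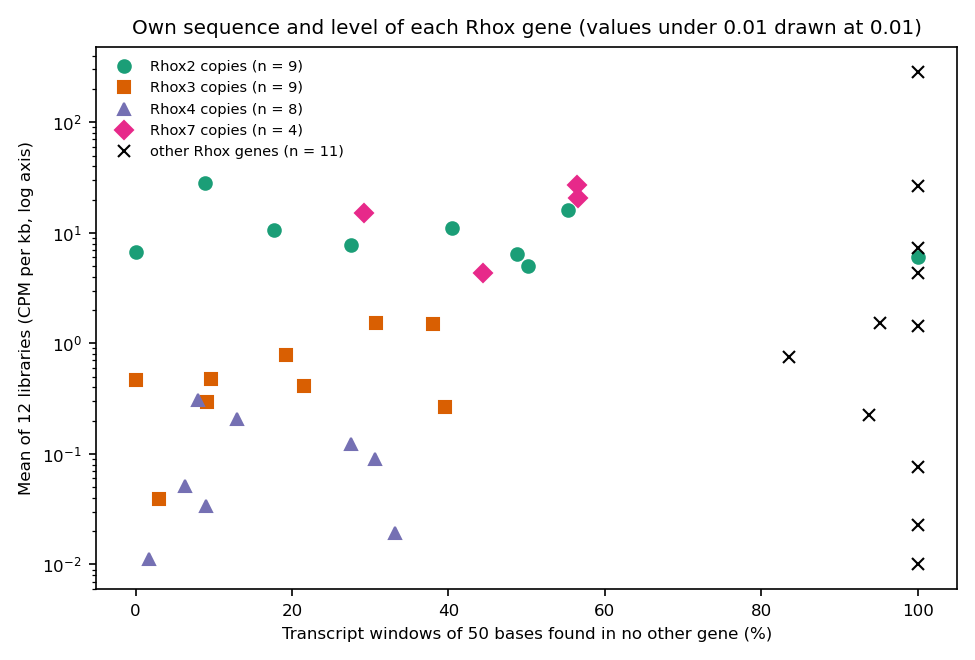
Mean level of each Rhox gene over 12 libraries (vertical log axis, CPM per kb of exon) against the share of its 50-base transcript windows that occur in no other gene (horizontal axis, %), with a colour and shape per array. The Rhox2 copies lie above the Rhox3 and Rhox4 copies at a similar share of own sequence, and Rhox13 and Rhox10 have 100% own windows.

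The 4 Rhox7 loci, 2 coding genes and 2 unprocessed pseudogenes, were detected alike. Rhox7b had 2454 counts and Rhox7a 806, while the pseudogenes Rhox7-ps1 and Rhox7-ps2 had 2486 and 1285, or 20.7 and 27.2 CPM per kb, above the 15.1 and 4.36 CPM per kb of the coding genes. Per kb, Rhox7-ps2 was the highest of the 4 in 10 libraries and Rhox7-ps1 in 2. They share sequence, with 29.2% to 56.5% own windows, so here too the split is uncertain. Rhox7b was among the steadiest members, at 15.6, 16.9 and 19.6 CPM in WT and 15.7, 17.3 and 13.3 CPM in Tet1KO at 3 months, and 16.7, 14.4 and 19.2 CPM and 18.9, 10.7 and 19.0 CPM at 11 months. Its groups overlapped throughout.

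Rhox1, at the edge of the cluster, lay between 4.26 and 10.5 CPM in the 12 libraries, and overlapped in all groups. At 3 months its mean was 5.55 CPM ± 1.69 (SD, n = 3) in WT and 6.25 ± 1.75 in Tet1KO, and at 11 months 7.10 ± 0.852 and 6.79 ± 3.26. Rhox11 ranged from 0 (Tet1KO replicate 2 of 11 months, where 3 counts would be 0.301 CPM) to 3.02 CPM. Its highest values, 3.02 and 2.80 CPM, were those of WT replicate 1 and Tet1KO replicate 2 of 3 months, the 2 libraries that stood apart. The pseudogene Rhox11-ps2, a separate locus with sequence of its own, was also highest in these 2 libraries, at 3.86 and 4.58 CPM. Rhox6 and Rhox9, a related pair known from fetal germ cells and placenta, had 108 and 89 counts in all. Rhox12 had 11.

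In none of the 5 comparisons did a member pass the edgeR quasi-likelihood test at an adjusted p of 0.05, and neither did any other of the 19815 genes tested (0.0% called in each). DESeq2 called 2 genes for Tet1KO against WT at 3 months, 3 at 11 months and 7 between ages in Tet1KO, none of them a member, and 0 in the other comparisons. limma-voom called 0 throughout. At an unadjusted p of 0.05, edgeR listed 1 member in each of 3 comparisons and 0 in the other two, as given below. These were Rhox8 at 3 months, Rhox9 at 11 months (1.65% of tested genes) and Rhox2a with age in WT, and of these Rhox9 had reached the filter through Tet1KO libraries alone.

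At 3 months, 13 of the 24 tested members had higher and 11 lower values in Tet1KO than in WT, with a median log2 fold change of 0.01, beside -0.02 over all tested genes. Rhox13 had a log2 fold change of -0.16 ± 0.27 (SE), with a 95% interval from 0.598-fold to 1.35-fold, and Rhox10 of -0.37 ± 0.58 (0.319-fold to 1.88-fold). For Rhox2a the value was 0.25 ± 0.20. Summed over copies, pseudogenes included, it was 0.13 ± 0.17 for Rhox2, -0.15 ± 0.40 for Rhox3 and 0.18 ± 0.46 for Rhox4. The 95% interval of Rhox13 leaves out a 2-fold change in either direction, while that of Rhox10 does not leave out a 2-fold lower level.

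Rhox8 was the member with the largest difference at 3 months. It encodes an androgen-regulated factor of Sertoli cells. It stood at 7.11, 2.67 and 2.42 CPM in WT (94, 26 and 18 counts) and at 1.45, 0.647 and 0.962 CPM in Tet1KO (14, 12 and 10 counts), so that all 3 WT libraries were above all 3 Tet1KO libraries. It was the only member whose groups did not overlap at this age, where 3.62% of all tested genes were lower and 3.32% higher in Tet1KO without overlap. The log2 fold change was -2.01 ± 0.80 (SE; 95% interval 0.0738-fold to 0.835-fold), with an unadjusted p of 0.0279, reached by 1.14% of tested genes, and an adjusted p of 1 in edgeR. Without WT replicate 1 it was -1.33 ± 0.85, and without both libraries that stood apart -1.08 ± 0.95. Since WT replicate 1 was the highest library, leaving it out could not make the groups overlap.

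Sertoli transcripts differed between the same libraries. Rhox5, the cluster gene best known from Sertoli cells and not a member here, stood at 8.54, 3.08 and 1.61 CPM in WT and 2.07, 0.539 and 0.769 CPM in Tet1KO at 3 months. The summed Sertoli list without Rhox5 and without Ctsl, its most abundant gene, stood at 589.1, 153.1 and 248.7 CPM in WT and 55.0, 136 and 56.5 CPM in Tet1KO. All 15 tested genes of the list had lower values in Tet1KO at this age (median log2 fold change -1.58), 0 passed the test and 0 of the 17 were at 0 in all libraries. Of its defining genes, Sox9 was at 0.134 to 3.86 CPM in WT and 0.192 to 0.755 CPM in Tet1KO, and Amh and Fshr stayed below the filter. With Ctsl included the sums ran from 449.3 to 999.6 CPM in WT and from 395.1 to 452.6 CPM in Tet1KO, which then overlap. The part of Sertoli RNA in the Rhox8 difference was not tested.

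**Figure D4:**
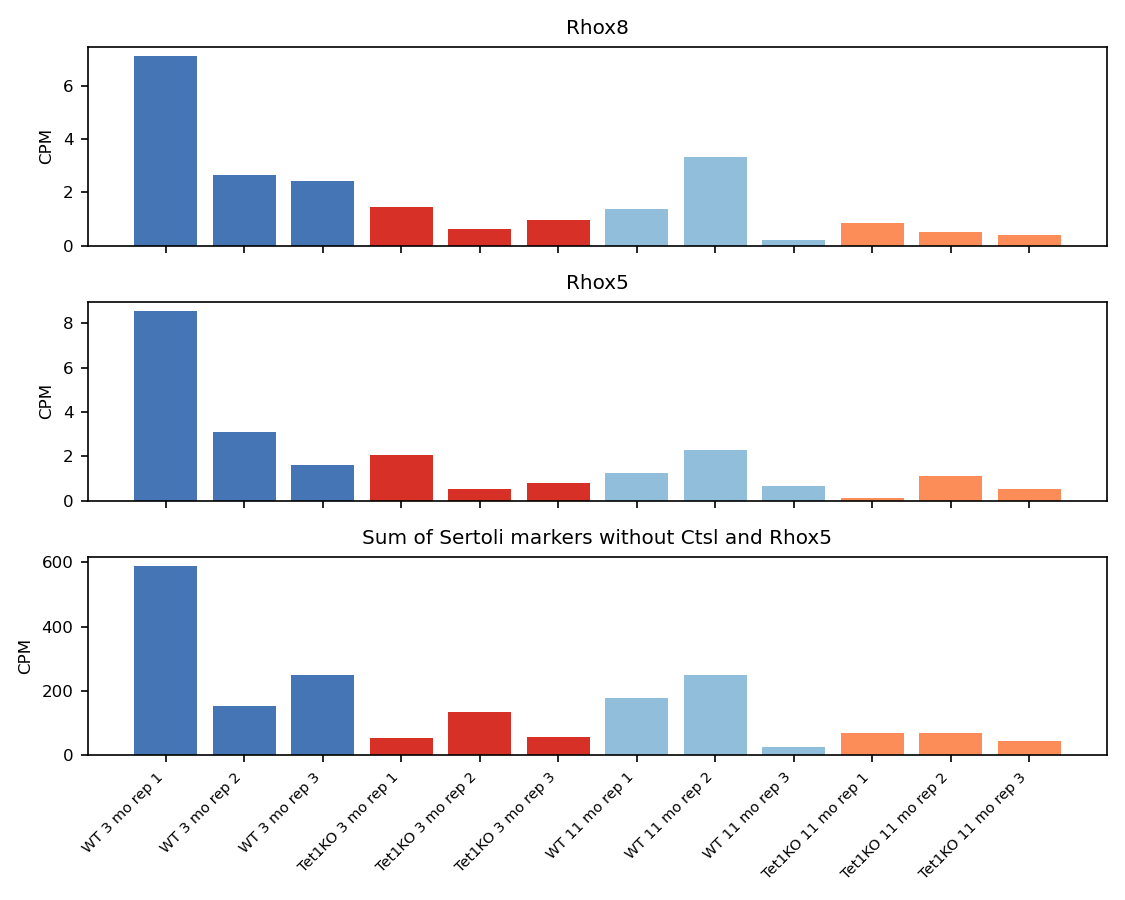
Rhox8, Rhox5 and the summed Sertoli markers (without Ctsl and Rhox5) in the 12 libraries (bars, CPM, each panel with its own scale from 0), coloured by group. WT replicate 1 of 3 months is the highest library in all 3 panels, at 7.11, 8.54 and 589.1 CPM, and WT replicate 2 of 11 months is the highest of its age in all 3.

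At 11 months, 8 members had higher and 16 lower values in Tet1KO than in WT, with a median log2 fold change of -0.11, beside 0.02 over all tested genes. Rhox13 was at -0.05 ± 0.27 (SE; 95% interval 0.641-fold to 1.45-fold) and Rhox10 at 0.09 ± 0.58 (0.437-fold to 2.59-fold). With the replicate number as a block within the 6 libraries of this age the Rhox10 value was 0.09 ± 0.19. This block was chosen after seeing the data, and the labels state no pairing. The 8 coding Rhox2 copies were all on the lower side, from -0.74 for Rhox2g to -0.16 for Rhox2a. The sum of all Rhox2 copies, with the pseudogene Rhox2-ps, was at -0.31 ± 0.17. Since the coding copies share sequence and the split of reads among them is uncertain, they do not count as 8 separate observations. Summed over copies, Rhox3 with the pseudogenes Rhox3b-ps and Rhox3d-ps was at 0.45 ± 0.39 and Rhox4 at -0.36 ± 0.45. Over the tested members outside the Rhox2, Rhox3 and Rhox4 arrays the median was 0.02. These members include Rhox9, which reached the filter through Tet1KO libraries alone, so no conclusion is drawn from the sign of this median.

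Marker lists differed in the same comparison, with 0 genes past the test. Values in Tet1KO were higher for 10 of 10 spermatid (median log2 fold change 0.32) and 9 of 9 macrophage genes (0.74). They were lower for 7 of 7 peritubular myoid (-1.98) and 13 of 15 Sertoli genes (-0.92). Of all 19815 tested genes 10655 had higher values. The summed spermatid, macrophage and Sertoli markers overlapped between genotypes. The peritubular myoid sums did not, at 72.3 to 243.8 CPM in WT and 23.2 to 55.5 CPM in Tet1KO. Their part in the Rhox2 values was not tested.

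Rhox2g and Rhox2-ps lay lower in Tet1KO at 11 months without overlap between groups (2.54% of tested genes). Rhox9 and Rhox3d-ps lay higher without overlap (2.82%), but both were in the fit only because Tet1KO libraries reached the filter, so a higher value in Tet1KO was built into their selection and their values are a description. Rhox9 had 2, 4 and 2 counts in WT (0.126, 0.233 and 0.219 CPM) and 7, 9 and 17 in Tet1KO (0.431, 0.904 and 1.42 CPM). The WT values lie at or near the level of 3 counts. The fitted log2 fold change was 2.20 ± 0.95 (SE), and 1.73 ± 1.11 without Tet1KO replicate 3. At 3 months the same gene stood at 0.134 to 0.616 CPM in WT and 0.192 to 1.51 CPM in Tet1KO, and the groups overlapped. Rhox6, its closest relative, stood at 0.329 to 0.583 CPM in WT and 0.301 to 1.67 CPM in Tet1KO at 11 months, also with overlap.

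Rhox2g, 1 of the smaller Rhox2 copies, stood at 6.497, 5.83 and 9.10 CPM in WT and 5.05, 3.21 and 4.51 CPM in Tet1KO at 11 months, and its log2 fold change was -0.74 ± 0.36 (SE; unadjusted p of 0.0622 in edgeR). Rhox8 was at 1.39, 3.33 and 0.219 CPM in WT and 0.862, 0.502 and 0.418 CPM in Tet1KO, with a log2 fold change of -1.46 ± 0.81. The groups overlapped, with WT replicate 3 the lowest of the 6, and without WT replicate 2 the value was -0.46 ± 0.81. The Sertoli sum without Ctsl and Rhox5 was 179, 249.7 and 24.5 CPM in WT and 69.0, 68.3 and 42.9 CPM in Tet1KO. WT replicate 3 was thus the lowest and WT replicate 2 the highest in both Rhox8 and these markers.

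**Figure D5:**
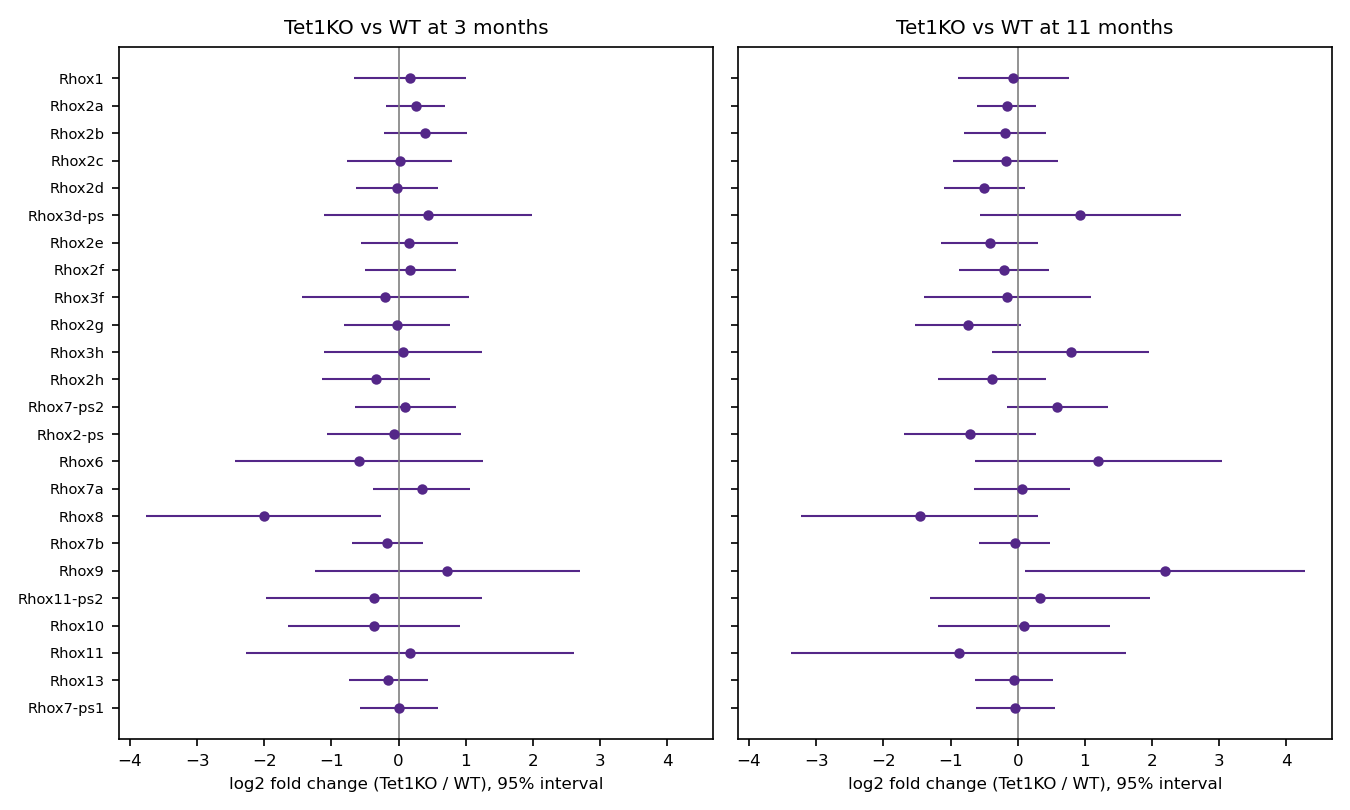
Log2 fold change of Tet1KO over WT (horizontal axis, points) with its 95% interval (lines) for the 24 tested Rhox genes in chromosome order, at 3 months (left) and 11 months (right). Most points lie within 1 unit of 0; the interval of Rhox8 at 3 months and that of Rhox9 at 11 months leave out 0, without adjustment for the number of genes, and Rhox9 passed the filter only through Tet1KO libraries.

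Between ages in WT, 13 members had higher and 11 lower values at 11 than at 3 months, with a median log2 fold change of 0.13, beside -0.06 over all tested genes. Over the tested members outside the Rhox2, Rhox3 and Rhox4 arrays the median was -0.21. The higher values were mainly those of the Rhox2 array. All 8 coding copies were higher, by 0.20 to 0.71 on the log2 scale, and Rhox2a, Rhox2b, Rhox2e and Rhox2g did so without overlap (5.42% of tested genes), as did Rhox7-ps2 in the other direction (6.12%). Rhox2a stood at 17.5, 17.96 and 23.5 CPM at the younger age, then 30.5, 26.3 and 25.5 CPM at the older, with a log2 fold change of 0.48 ± 0.20 (SE), an unadjusted p of 0.0346 in edgeR, reached by 5.67% of tested genes, and an adjusted p of 0.774. Without both libraries that stood apart it was 0.41 ± 0.24. Summed over all copies, Rhox2-ps included, Rhox2 stood at 61.7, 72.3 and 71.1 CPM at 3 months and 95.1, 81.3 and 102.1 CPM at 11 months. The groups did not overlap, and the log2 fold change of the sum was 0.44 ± 0.17 (edgeR adjusted p of 0.7745). Markers of other cells differed between the same libraries. Values at 11 months were lower for 13 of 15 Sertoli (median log2 fold change -0.998), 10 of 10 spermatid (-0.43), 8 of 9 macrophage (-0.40) and 6 of 7 peritubular myoid genes (-0.32), beside 11166 of all 19815 tested genes. They were higher for 9 of 15 genes of undifferentiated (0.10) and 8 of 10 of differentiating spermatogonia (0.12). The spermatid sums overlapped, at 487.8 to 2886 CPM at 3 and 295 to 2644 CPM at 11 months, as did those of the Sertoli list (449.3 to 999.6 and 416.8 to 619.4 CPM). None of these genes passed the test, none of these lists had a marker at 0 in all libraries, and their part in the Rhox2 difference was not tested.

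In Tet1KO the Rhox2 sum stood at 77.9, 71.2 and 75.8 CPM at 3 months and 85.7, 54.2 and 85.3 CPM at 11 months, and its log2 fold change between ages was 0.00 ± 0.17 (SE). All 4 groups side by side, the Rhox2 mean was 68.4 ± 5.82 (SD, n = 3) in WT at 3 months, 74.95 ± 3.46 in Tet1KO at 3 months, 92.9 ± 10.6 in WT at 11 months and 75.1 ± 18.04 CPM in Tet1KO at 11 months. WT at 11 months had the highest mean. The difference of the Tet1KO effect between ages was -0.44 ± 0.25 for the Rhox2 sum (edgeR adjusted p of 1) and -0.42 ± 0.28 for Rhox2a, so a difference between the genotypes in this respect was not established. As shares of the members' counts, Rhox2 took 13.99% to 18.9% in WT at 3 months and 20.3% to 22.1% in WT at 11 months, which do not overlap, and 17.7% to 19.8% and 17.7% to 19.2% in Tet1KO, which do.

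With age, Rhox13 was at -0.002 ± 0.27 (SE) in WT and 0.10 ± 0.27 in Tet1KO, with 95% intervals from 0.665-fold to 1.5-fold and from 0.713-fold to 1.61-fold. Rhox10 was at -0.61 ± 0.58 in WT and -0.15 ± 0.58 in Tet1KO, and the WT value was -0.02 without WT replicate 1 of 3 months. In Tet1KO, 15 members had higher and 9 lower values at 11 than at 3 months, with a median of 0.04 beside -0.01 over all tested genes. In that comparison 0 members had groups without overlap (3.1% of tested genes higher, 3.09% lower) and 0 had an unadjusted p under 0.05 (2.33% of genes) in edgeR, and DESeq2 and limma-voom called 0 members. For the difference of the Tet1KO effect between ages, 11 members were above and 13 below 0 (median -0.04, all genes 0.06), and 0 had an unadjusted p under 0.05 (1.57% of genes) in edgeR. The largest of these values was that of Rhox6, 1.79 ± 1.19.

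The factors tied to the family were measured in the same fit. Of 8 genes that write, keep or remove DNA methylation (Dnmt1, Dnmt3a, Dnmt3b, Dnmt3l, Uhrf1, Tet1, Tet2 and Tet3), all 8 were tested and 0 passed in any comparison. Dnmt1, the maintenance methyltransferase, lay between 83.5 and 135.8 CPM, Uhrf1, which recruits it, between 39.0 and 66.1 CPM, and Tet3 between 23.8 and 34.8 CPM. Their median log2 fold change in Tet1KO was -0.03 at 3 and 0.06 at 11 months. Dmrt1, the germ cell factor linked to Rhox10, had log2 fold changes of 0.09 ± 0.21 (SE) and 0.09 ± 0.21 at the 2 ages. Nanos2 had 0.31 ± 0.93 and -1.31 ± 0.95, at counts near the limit of detection.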

How the data were processed

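The values used are the raw counts the authors deposited, whole numbers per gene. They were made with featureCounts 1.6.2 on GENCODE vM17, per the file headers, without strand, with a mapping quality minimum of 30 and with fragments that overlap several genes or map to several places allowed. HISAT2, SAMtools and the build mm10 are named in the submitters' processing notes, with no version of either tool. Reads of a gene and of its antisense partner cannot be told apart without strand. Symbols came from a GENCODE M21 table (53620 of 53715 genes matched). Coordinates are those of the deposited table and promoters those of RefSeq on GRCm38.p6.

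Counts were tested with edgeR 4.0.16 in R 4.3.3: filterByExpr (19815 genes left), TMM scaling, 1 model over 12 libraries with 1 mean per group, robust quasi-likelihood F tests, two-sided, and Benjamini-Hochberg adjustment over all tested genes at 0.05. DESeq2 1.42.0 and limma 3.58.1 (limma-voom with sample weights) were alternatives. SEs were derived from the F statistic. CPM were scaled with the TMM factors; CPM per kb divides them by the exon length in the deposited table. Transcript windows and promoters were read with Python 3.11.15, and promoters aligned with Biopython 1.88. The fit was tested on simulated counts. Total counts of 8325159 to 18223645 per library limit the precision of members with few counts. Libraries of a group differed by more than counting noise (the lowest chi-square divided by its degrees of freedom was 9.86), and each was counted as 1 replicate.

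Members were chosen by symbol. Other genes named were the DNA methylation factors, Nanos2, Dmrt1, Rhox5, defining markers and selected genes of the lists. In the list of X-linked spermatogonial genes those named were not the most abundant, which were Nxf2, Taf7l and Tex11. The members and all lists were chosen with earlier results of these data known. Alternatives were other scalings, filters and tools, summed copies, the replicate number as a block, the AK or DY prefix of library codes as a covariate, only the compared groups, and libraries left out. Chosen after seeing the data were the block within 11 months and the Sertoli list without Ctsl. The labels number the replicates but state no pairing. At 11 months the deviations of same-numbered WT and Tet1KO libraries from their group means correlated at 0.41, 0.24 and 0.41. The block within that age rests on these values alone, and whether the libraries were prepared in pairs is not known. At 3 months the values were -0.65, -0.27 and 0.43, and no block within that age was added.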

Additional observations from a re-analysis of the deposited data

How the results depend on the processing

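No member passed the edgeR, DESeq2 or limma-voom test under any of 24 alternatives, and the smallest adjusted p of a member was 0.5587. Of the genes at large, only DESeq2 called any (2 and 3 for Tet1KO against WT at 3 and 11 months, and 7 between ages in Tet1KO). Of 21 member fold changes followed through the alternatives, 11 kept their sign in all, among them Rhox8 in 4 comparisons, Rhox2a at 3 months, in WT with age and in the difference, Rhox9 and Rhox2g at 11 months, Rhox2e with age and Rhox10 with age in WT. For Rhox9, in the fit through Tet1KO libraries alone, a kept sign is no sign of stability. All 96 group levels moved by less than 1 SD on library totals.

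The other 10 changed sign, all from values within 1 SE of 0, and the cause was not tested. Log2 fold changes with the opposite sign were, under limma-voom, 0.033 for Rhox13 at 3 months, -0.030 for Rhox10 at 11 months, and for Rhox13 0.12 with age in WT, -0.057 with age in Tet1KO and -0.18 in the difference. Without both libraries that stood apart they were 0.062 for Rhox10 at 3 months, -0.011 for Rhox13 and 0.0095 for Rhox10 with age in Tet1KO, and -0.39 for Rhox8 in the difference. Rhox13 with age in WT was 0.059 on library totals and 0.028 without a filter.

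Leaving out 1 library gave, for Rhox13, -0.31 to 0.17 at 3 months, -0.23 to 0.17 at 11 months, -0.15 to 0.33 with age in WT, -0.078 to 0.33 with age in Tet1KO and -0.24 to 0.32 in the difference. For Rhox10 it gave -0.71 to 0.22, -0.38 to 0.57 and, with age in Tet1KO, -0.61 to 0.18. Rhox2a with age in Tet1KO ran from -0.068 to 0.25, and Rhox8 in the difference from -0.13 to 1.54.

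With the replicate block 0 genes were called in all 5 comparisons, and Rhox13 with age in WT was 0.016 in place of -0.002. The block within the 6 libraries of 11 months also called 0 genes and gave -0.10 for Rhox13, 0.09 for Rhox10, -1.03 for Rhox8 and -0.75 for Rhox2g; Rhox9 was not in that fit. Same-numbered libraries of 3 months deviated together in replicate 3 alone (0.43), not in replicates 1 and 2 (-0.65 and -0.27). The replicate block over all libraries changed no call at that age.

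Among tested members the largest SE was 1.59 on the log2 scale, for Rhox11 in the difference. Few counts kept most Rhox3 and Rhox4 copies out of the test. Prefix DY of the library code is on WT replicate 2 and Tet1KO replicate 1 of 3 months alone, and as a covariate it changed no call.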

Other observations

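Within 500000 bases of the outermost Rhox genes the deposited table lists 46 other genes, of which 23 passed the filter and 10 had no count in any library. Ndufa1, a subunit of respiratory complex I, and Lamp2, a lysosomal membrane protein, had the highest mean CPM of these neighbours. Ndufa1 lay between 298.2 and 1014 CPM and Lamp2 between 228 and 353.9 CPM. Of the 23, Mdrl and Gm14549 had identical values in all 12 libraries and are counted once here. In Tet1KO against WT, 4 neighbours then had higher and 18 lower values at 3 months (median log2 fold change -0.16), beside 9282 higher and 10533 lower of all tested genes, and 13 and 9 at 11 months (0.11), beside 10655 and 9158, with 0 past the edgeR test. Among other genes of the X chromosome known from spermatogonia, 9 of 10 were tested and 0 passed, with medians of 0.04 and 0.05. Tktl1, a transketolase-like gene of that list, lay between 133 and 202.2 CPM and Usp26, a testis deubiquitinase, between 52.2 and 86.4 CPM, while Fthl17a reached 6.43 CPM in WT replicate 1 of 3 months and was at 0.0616 CPM in Tet1KO replicate 1 of 11 months. Of 18 germline genes that promoter methylation silences in somatic cells, all 18 were tested and 0 passed, with medians of 0.01 at both ages.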
